A study of Mus musculus with 2 samples.

Results

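The integrins that hold cells to the extracellular matrix were followed through all cell classes of Lewis lung carcinoma (LLC) tumors. They were chosen by name as Itga1, Itga2, Itga3, Itga5, Itga6, Itga11, Itgav, Itgb1, Itgb3 and Itgb5, and all 10 were found among the 32285 genes of the files. LLC is a transplantable mouse lung cancer, here grown under the skin of C57BL/6 mice, and the tumors were dissociated for droplet single-cell RNA sequencing. The CT library came from mice with the genotype Gucy1b1 flox/flox, in which a subunit of soluble guanylate cyclase (sGC), the receptor of nitric oxide, is flanked by loxP sites. The KO library came from mice that also carried Cspg4-CreERT2 (Gucyc1b1 flox/flox in the labels' spelling), a tamoxifen-activated Cre made in cells that use the Cspg4 gene, in vessels mainly pericytes. Mice of both genotypes were given tamoxifen in 5 doses at the age of 4 weeks, were inoculated at the age of 8 weeks and had their tumors taken 2 weeks later, and each library pooled 3 tumors. The injected cancer cells carry neither the floxed allele nor the Cre. With 1 library per genotype there is no replicate, so that no test was made between the genotypes, and all intervals given are exact 95% intervals that cover counting error only.

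An integrin is a pair of an alpha and a beta subunit that spans the membrane, binds matrix outside the cell and links to actin inside it through talin and kindlin. The alpha subunit largely sets the ligand. Itga1, Itga2 and Itga11 bind collagens, Itga3 and Itga6 bind laminins of basement membranes, Itga5 binds fibronectin and Itgav binds vitronectin, fibronectin and latent TGF-beta through the RGD motif. Itgb1 is the shared partner of all these alpha subunits, whereas Itgb3 and Itgb5 pair with Itgav. In vessels, endothelial cells (EC) and the pericytes that wrap them share a basement membrane of laminin and type IV collagen, and integrins anchor both cell types to it.

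The CT library held 15007 cell barcodes and the KO library 25631, of which 12220 and 22498 passed the filters, with a median of 35776.5 and 8685 unique molecular identifiers (UMIs) per cell. Cells were placed in 8 classes by their UMIs of marker genes that include no integrin, and 10319 CT and 15887 KO cells received a class, while 1901 (15.56%) and 6611 (29.38%) did not. The classes held 37 CT and 37 KO pericyte-like cells, 58 and 56 EC-like, 122 and 215 fibroblast-like, 7023 and 11558 cancer-like, 2622 and 3517 macrophage-like, 263 and 317 granulocyte-like, 65 and 58 T-like, and 129 and 129 dendritic-like cells. All markers of each list had UMIs in both libraries, and Rgs5 led the pericyte-like, Gpihbp1 the EC-like, Col1a2 the fibroblast-like and Rhox5 the cancer-like cells. Rgs5, Col1a2 and Rhox5 are among the markers that placed the cells, so that their lead follows from the placing. Gpihbp1 is not a marker. Acta2 and Myl9, contractile genes of smooth muscle, were also among the leading genes of pericyte-like cells in both libraries. Smooth muscle cells were not made a separate class. 131 barcodes occurred in both libraries (0.8729% of CT and 0.5111% of KO). Cells were deeper in CT in most classes, with a median of 11224 against 7452 UMIs in pericyte-like, 24588 against 11875 in EC-like and 21561.5 against 2760 in fibroblast-like cells.

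Gucy1b1, the deleted gene, had 59 UMIs in CT and 12 in KO pericyte-like cells, which is 127.3 and 41.95 CPM (UMIs of the gene scaled to 1e+06 UMIs of the class), and its log2 KO over CT ratio was -1.60 (-2.63 to -0.69). The count was not at 0 in KO, and a 3' UMI that lies outside the deleted stretch would still be counted. The source of the UMIs that remained in KO was not tested. Cspg4 itself had 77 and 23 UMIs there, and it was also found in macrophage-like cells at 47.61 and 27.32 CPM. The authors describe the Cspg4-CreERT2 mice as knock-in mice, and the part of that allele in the Cspg4 counts of KO was not tested. RNA of other cells was present in the small classes. EC markers in pericyte-like cells stood at 9.16% in CT and 9.66% in KO of their level in EC-like cells, with 3 and 4 of the 10 markers at 0, and pericyte markers in EC-like cells at 2.60% and 1.14% of their level in pericyte-like cells, with 0 and 5 of 10 at 0. Cancer-cell markers in pericyte-like cells stood at 5.32% in CT and 9.84% in KO of their level in cancer-like cells. The CPM of a gene that RNA of another class would carry is given below as its level in that class times the percent of that class's markers found. A carried value above the measured level overstates the RNA carried. The pericyte-like class is a range cut from a marker level, with 5 CT and 9 KO cells less than 2-fold above its limit and 11 and 11 cells less than 2-fold below it. For EC-like cells 8 CT and 26 KO cells lay less than 2-fold above the limit and 4 and 9 less than 2-fold below it. For fibroblast-like cells these counts were 15 and 76 above and 19 and 66 below. The part of cells near the limits in the KO over CT ratios was not tested.

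The genes lie on 7 chromosomes of the mouse genome (GRCm38, the mm10 build named for the files). Itga1 spans chr13:114953096-115101964 on the minus strand, beside Itga2 at chr13:114833081-114932100 on the same strand, and Itgb1 spans chr8:128685654-128733200 on the plus strand. Itga6 (chr2:71745616-71858416), Itgav (chr2:83724397-83806916), Itga11 (chr9:62677826-62783982), Itgb3 (chr11:104608000-104670476) and Itgb5 (chr16:33829665-33949338) are on the plus strand, and Itga3 (chr11:95044474-95076801) and Itga5 (chr15:103344286-103366763) on the minus strand. No member shared exon bases on its own strand with another gene counted in the files. The promoters of 3 members are shown. These are Itga1 and Itga11, collagen receptors whose highest classes were pericyte-like and fibroblast-like cells, and their partner Itgb1. Each promoter is given as 300 bases of RefSeq (GRCm38.p6) from 250 before to 50 after the RefSeq start of the gene. It is written 5′ to 3′ on the strand of the gene. The windows are chr13:115101915-115102214 (minus strand) for Itga1, chr8:128685404-128685703 (plus strand) for Itgb1 and chr9:62677605-62677904 (plus strand) for Itga11. The RefSeq start of Itga11 is not the start of the span given for it above. Capitals mark the GC box GGGCGG and the ETS motif GGAAGT on either strand.
Itga1: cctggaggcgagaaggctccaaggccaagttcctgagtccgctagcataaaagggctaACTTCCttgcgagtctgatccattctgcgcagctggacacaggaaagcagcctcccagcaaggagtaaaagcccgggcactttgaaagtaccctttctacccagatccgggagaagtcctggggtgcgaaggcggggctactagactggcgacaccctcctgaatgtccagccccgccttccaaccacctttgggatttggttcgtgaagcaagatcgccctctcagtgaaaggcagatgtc
Itgb1: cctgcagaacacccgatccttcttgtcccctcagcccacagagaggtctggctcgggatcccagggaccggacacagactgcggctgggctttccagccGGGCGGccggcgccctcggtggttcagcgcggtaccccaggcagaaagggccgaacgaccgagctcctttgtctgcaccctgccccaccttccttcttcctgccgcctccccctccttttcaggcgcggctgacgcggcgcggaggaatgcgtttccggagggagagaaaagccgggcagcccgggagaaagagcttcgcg
Itga11: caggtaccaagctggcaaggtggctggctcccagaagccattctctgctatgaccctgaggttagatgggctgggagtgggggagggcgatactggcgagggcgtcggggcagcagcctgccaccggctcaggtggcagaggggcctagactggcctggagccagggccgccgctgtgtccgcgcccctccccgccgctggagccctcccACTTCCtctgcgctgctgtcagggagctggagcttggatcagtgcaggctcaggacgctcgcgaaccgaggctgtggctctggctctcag
Itga1 and Itga11 held an ETS motif and no GC box, and Itgb1 a GC box and no ETS motif. Of the 8 members with a promoter in the table (not Itga6 and Itgb3), 6 held a GC box and 3 an ETS motif, against 35.7% and 23.8% of all 32851 promoters of this length. TATAAA (13.6% of all promoters), TGGGAA of the Notch factor RBPJ (25.6%), TGANTCA of AP-1 (7.81%), CACGTG (7.15%) and the CArG box of serum response factor (1.63%) were not found in these 8 windows on either strand, which says only that the letters are absent there. The 8 promoters had between 56.7% and 68% G and C, and 5 of them lay above 61.7%, the upper quartile of all promoters.

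The classes differed in their integrins, and the order of the classes was much alike in the CT and KO libraries. The class with the highest level was the same in both libraries for 8 of the 10 members, of which 2 (Itga1 and Itgb1) were highest in pericyte-like, 5 (Itga2, Itga3, Itga5, Itga6 and Itgb3) in EC-like and 1 (Itga11) in fibroblast-like cells. Among the 9 members with at least 200 UMIs in all, the class was the same for 7 and at least 2-fold above the next class in both libraries for 5. Over all 13890 genes with at least 200 UMIs, these shares were 57.0% and 13.8%. No member was highest in cancer-like, macrophage-like, granulocyte-like or dendritic-like cells in either library. A UMI count of a 3' library does not grow with the length of the transcript, so that CPM of different genes are set side by side below without a length correction.

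**Figure D1:**
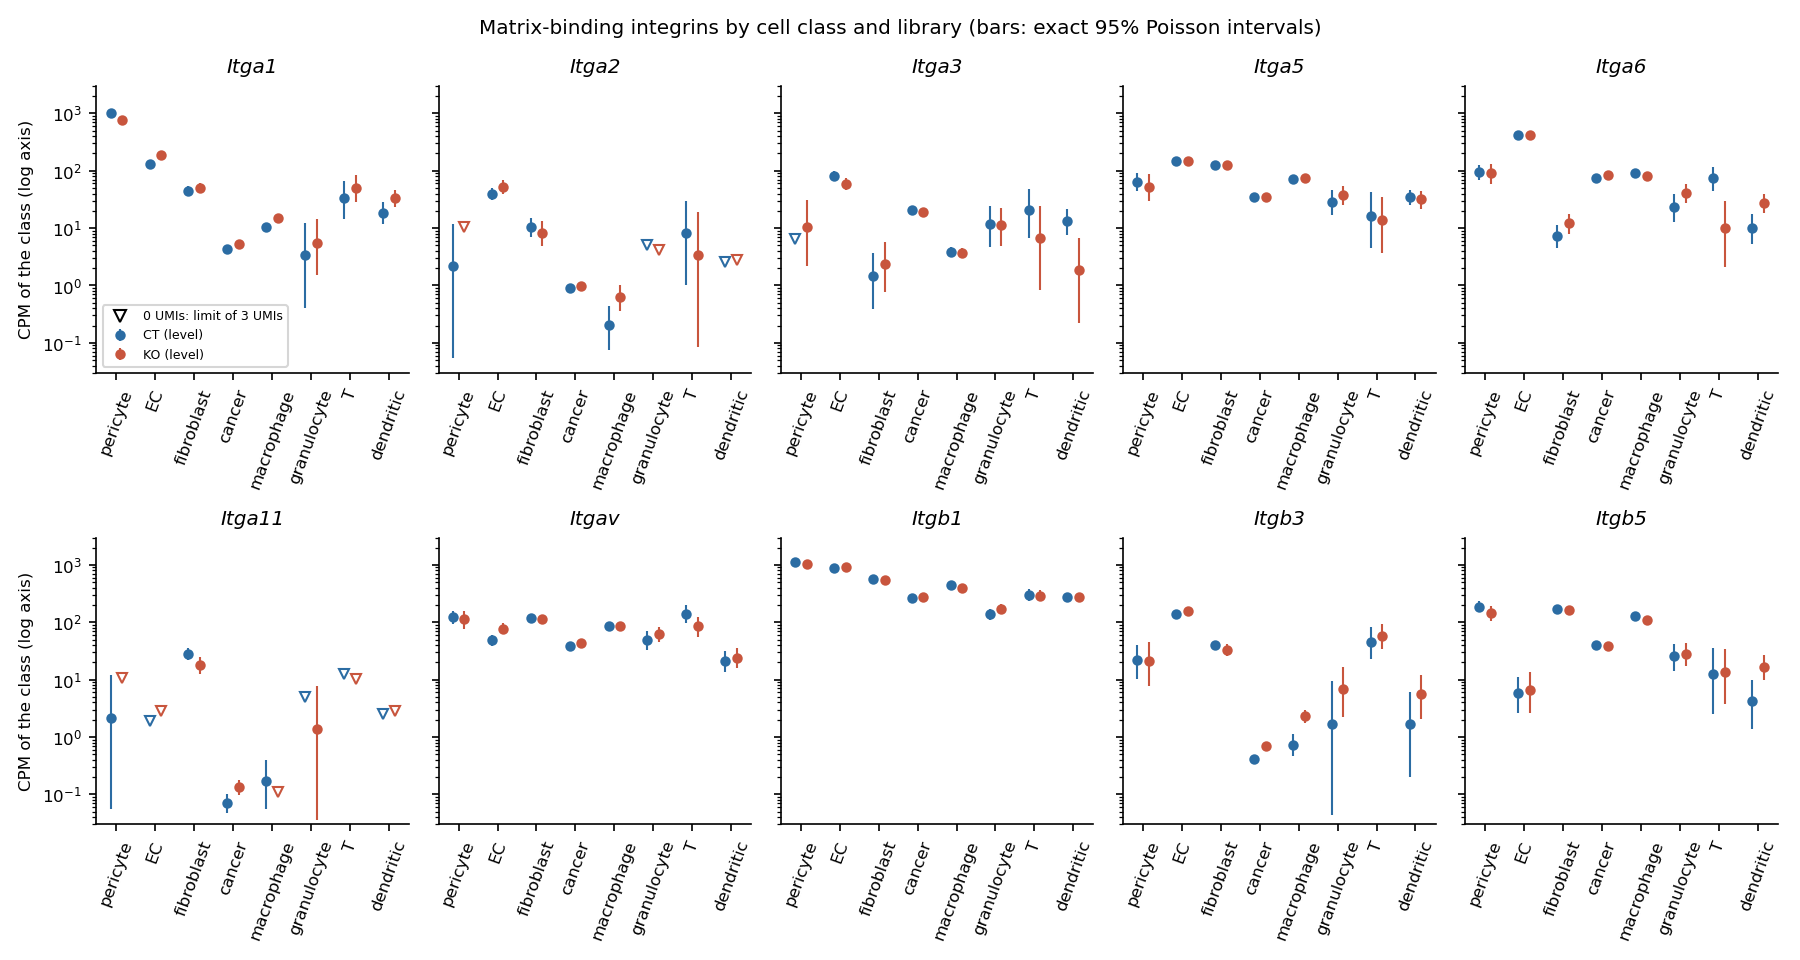
Level of each of the 10 integrins (CPM of the class, log axis) in 8 cell classes of the CT (blue) and KO (red) libraries, with exact 95% Poisson intervals as bars and open triangles at the limit of 3 UMIs where a class had none. Itga1 peaks in pericyte-like cells at 1005 and 755 CPM, Itga6 in EC-like cells at 421 and 426 CPM and Itga11 in fibroblast-like cells at 28.0 and 17.9 CPM, while Itgb1 stays above 100 CPM in all classes.

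Among the collagen receptors, Itga1 was highest in pericyte-like cells. Its level there was 1005 CPM (916 to 1101) in CT and 755 CPM (658 to 863) in KO, 7.66-fold (6.49 to 9.07) and 4.02-fold (3.30 to 4.90) above EC-like cells, the next class, at 131 and 188 CPM. Fibroblast-like cells followed at 45.1 and 50.2 CPM and T-like cells at 33.1 and 50.8 CPM, which overlapped each other within their intervals. Pericyte markers in fibroblast-like cells would carry 72.9 CPM of Itga1 in CT and 54.5 CPM in KO, above the measured levels, and the part of pericyte RNA in the fibroblast level was not tested. Macrophage-like cells were at 10.6 and 15.1 CPM and cancer-like cells at 4.24 and 5.34 CPM. With every cell thinned to 2000 UMIs and shallower cells left out, 81.1% of 37 CT and 82.6% of 23 KO pericyte-like cells held an Itga1 UMI. The same share was 0.690% of 145 CT and 1.65% of 182 KO granulocyte-like cells, leukocytes that lay at the low end of the order. Without thinning, 97.3% of CT and 70.3% of KO pericyte-like cells held one.

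Itga2, the collagen receptor also known from platelets and epithelia, was instead highest in EC-like cells. It stood at 39.5 CPM (30.3 to 50.7) in CT and 52.8 CPM (39.9 to 68.6) in KO EC-like cells, 3.75-fold (2.38 to 6.05) and 6.44-fold (3.69 to 11.8) above fibroblast-like cells. Pericyte-like cells held 1 Itga2 UMI in CT and 0 in KO, where 0 UMIs allow up to 12.9 CPM. Thus the 2 neighbouring collagen receptor genes on chromosome 13 differed in which of the 2 vascular classes had the higher level in CPM.

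Itga11, the receptor of fibrillar collagen on fibroblasts, was highest in fibroblast-like cells. It had 77 UMIs in CT and 37 in KO fibroblast-like cells, or 28.0 CPM (22.1 to 35.0) and 17.9 CPM (12.6 to 24.6). EC-like, T-like and dendritic-like cells had 0 UMIs in both libraries, which allows up to 2.35 and 3.48 CPM in EC-like cells. The next class was pericyte-like in CT, 13.0-fold (2.26 to 519) lower, and granulocyte-like in KO, 12.8-fold (2.15 to 518) lower, and both of these rest on 1 UMI. Cancer-like cells, with far more UMIs in all, held 29 and 45 UMIs of it and stood at 0.0715 and 0.134 CPM.

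The laminin receptors were highest in EC-like cells, and were also the main alpha subunits of the cancer cells. Itga6 was at 421 CPM (389 to 454) in CT and 426 CPM (388 to 468) in KO EC-like cells. Pericyte-like cells came next at 94.9 and 90.9 CPM, 4.43-fold (3.26 to 6.16) and 4.69-fold (3.16 to 7.26) lower, and did not differ from macrophage-like cells (91.9 and 81.3 CPM) beyond their intervals. The EC markers found in pericyte-like cells would carry 38.5 and 41.2 CPM of Itga6 with them, and the part of that RNA in the pericyte level was not tested. Cancer-like cells were at 74.6 and 84.6 CPM, and fibroblast-like cells at 7.27 and 12.1 CPM.

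Itga3 was at 82.2 CPM (68.6 to 97.7) in CT and 59.4 CPM (45.7 to 76.0) in KO EC-like cells, and at 20.6 and 18.8 CPM in cancer-like cells. The other stromal classes had few UMIs of it. Pericyte-like cells held 0 UMIs in CT and 3 in KO, and fibroblast-like cells 4 and 5 UMIs.

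Itga5 and Itgav were spread over more classes. Itga5 stood at 147 and 145 CPM in EC-like and at 126 and 124 CPM in fibroblast-like cells, a ratio of 1.16 (0.982 to 1.38) in CT and 1.18 (0.956 to 1.44) in KO, so that the order of these 2 classes could not be told from counting error. Macrophage-like cells followed at 72.5 and 75.8 CPM and pericyte-like cells at 64.7 and 52.4 CPM. Itgav was at 123 and 112 CPM in pericyte-like, 120 and 116 CPM in fibroblast-like and 85.3 and 85.8 CPM in macrophage-like cells. T-like cells stood at 140 CPM (97.3 to 196) in CT and 84.7 CPM (54.8 to 125) in KO, from 34 and 25 UMIs, and were the highest class in CT by 1.14-fold (0.724 to 1.78). The highest class of Itgav therefore differed between the libraries within counting error.

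Of the beta subunits, Itgb1 was the most abundant member in every class. It went down from pericyte-like (1117 and 1021 CPM) and EC-like cells (869 and 921 CPM) through fibroblast-like (556 and 538 CPM) and macrophage-like cells (442 and 399 CPM) to cancer-like cells (268 and 273 CPM), and granulocyte-like cells were lowest at 139 and 171 CPM. Pericyte-like cells were above EC-like cells by 1.29-fold (1.16 to 1.42) in CT and 1.11-fold (0.969 to 1.26) in KO. In thinned cells, 78.4% of CT and 82.6% of KO pericyte-like cells held an Itgb1 UMI, against 20.7% and 23.6% of granulocyte-like cells.

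The partners of Itgav divided between the vascular classes. Itgb3 was at 141 CPM (123 to 161) in CT and 159 CPM (136 to 185) in KO EC-like cells, 3.11-fold (1.71 to 6.33) and 2.77-fold (1.68 to 4.86) above T-like cells, and at 21.6 and 21.0 CPM in pericyte-like cells, where the EC markers present would carry 13.0 and 15.4 CPM. Itgb5 showed the opposite order, with 188 CPM (150 to 232) and 143 CPM (103 to 194) in pericyte-like cells and 5.74 and 6.60 CPM in EC-like cells. Fibroblast-like cells held Itgb5 at 169 and 163 CPM and did not differ from pericyte-like cells beyond counting error, and macrophage-like cells held 131 and 111 CPM. Cancer-like cells had Itgb5 at 39.5 and 39.2 CPM and Itgb3 at 0.421 and 0.689 CPM.

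As shares of the UMIs of the 7 alpha subunits, the classes separated by ligand. Collagen receptors made up 78.1% (74.6 to 81.4) of the alpha UMIs of CT and 74.0% (68.5 to 78.9) of KO pericyte-like cells. Laminin receptors made up 57.8% (55.2 to 60.5) and 51.2% (48.1 to 54.3) in EC-like cells and 55.0% and 54.9% in cancer-like cells. Fibroblast-like cells were divided between Itga5 (37.3% and 37.4%), Itgav (35.4% and 35.1%) and the collagen receptors (24.7% and 23.1%), of whose UMIs 124 in CT and 104 in KO were Itga1, for which the carried pericyte RNA is given above. Macrophage-like cells held laminin receptors (36.2% and 32.4%), Itgav (32.2% and 32.7%) and Itga5 (27.4% and 28.9%), with 4.15% and 5.99% collagen receptors. The 7 alpha subunits together had 1.16 and 1.00 UMIs per Itgb1 UMI in pericyte-like cells and 1.00 and 1.03 in EC-like cells, but 0.609 and 0.613 in fibroblast-like and 0.646 and 0.690 in cancer-like cells.

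**Figure D2:**
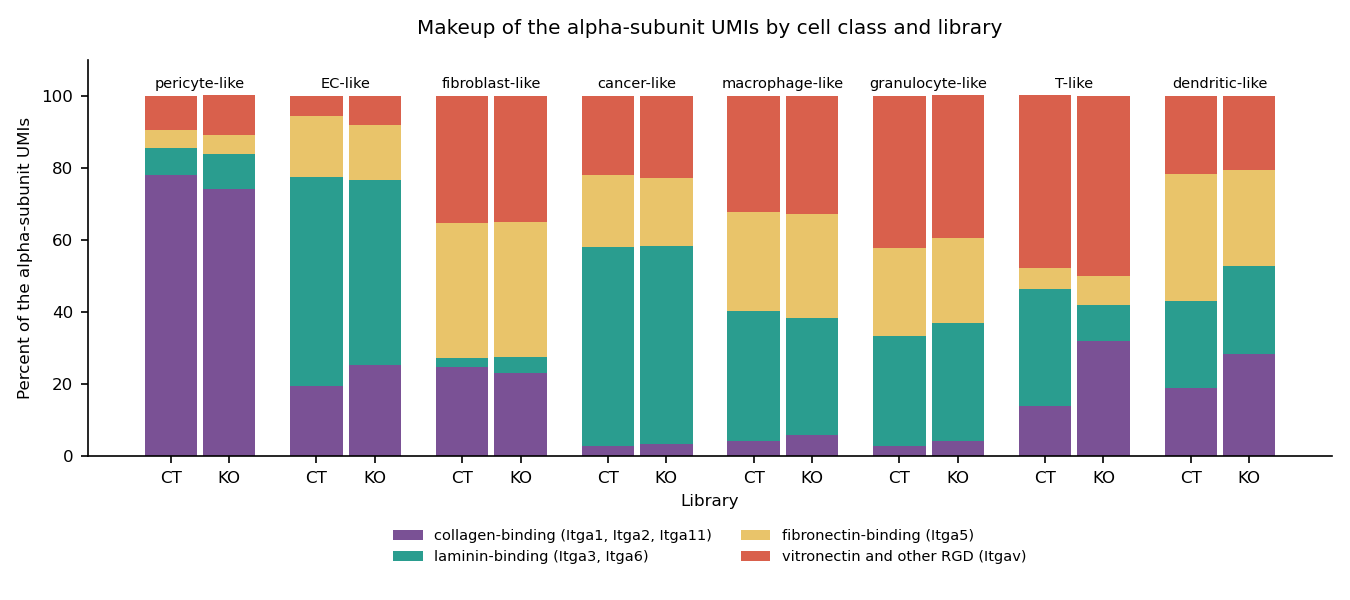
Percent of the UMIs of the 7 alpha subunits by ligand group (stacked, each bar sums to 100 percent) in each cell class, with CT and KO side by side. The collagen-binding share is 78.1% and 74.0% in pericyte-like cells and the laminin-binding share 57.8% and 51.2% in EC-like cells; granulocyte-like, T-like and dendritic-like bars rest on 50 to 127 UMIs each.

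Summed over the 10 members, integrin UMIs made up 2619 CPM in CT and 2206 CPM in KO pericyte-like cells, 1886 and 2036 CPM in EC-like, 1104 and 1064 CPM in fibroblast-like, 838 and 774 CPM in macrophage-like and 481 and 501 CPM in cancer-like cells. Thinned to 2000 UMIs, a pericyte-like cell held UMIs of 2.41 members on average in CT and 2.30 in KO, an EC-like cell 2.27 and 2.43, and a cancer-like cell 0.817 and 0.800. The 2 vascular classes thus had the most RNA of these 10 members per UMI in both libraries. Integrins outside the set are not in this sum, such as Itgam at 586 and 631 CPM in macrophage-like cells.

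Between the libraries, a member was counted as different where its CPM in a class was at least 1.5-fold apart with at least 50 UMIs in CT and KO together. In pericyte-like cells, the class at which the Cre is aimed, 5 of the 10 members reached 50 UMIs and none was 1.5-fold apart, while 8.59% of 2259 genes were at least 1.5-fold lower and 5.40% at least 1.5-fold higher in KO. The median log2 ratio of these 5 members was -0.14 and that of all genes -0.06, both below 0. Itga1 stood farthest from 0, with 466 UMIs in CT and 216 in KO and a log2 ratio of -0.41 (-0.65 to -0.18). Itgb5 had a log2 ratio of -0.39 (-0.96 to 0.16), Itgb1 of -0.13 (-0.34 to 0.08), Itgav of -0.14 (-0.81 to 0.51) and Itga6 of -0.06 (-0.82 to 0.67), so that the interval left out 0 only for Itga1.

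The Itga1 value depended on how cells were weighed. With each cell given equal weight its log2 ratio was -0.76, past 1.5-fold, and with cells thinned to 2000 UMIs, which left out 14 of 37 KO and none of the CT cells, it was -0.01. The remaining settings gave between -0.47 and -0.35. Single pericyte-like cells ranged from 0 to 2487 CPM of Itga1 in CT with a median of 779, and from 0 to 1209 CPM in KO with a median of 569. UMIs were not drawn from a single cell, since the cell with the most held 11.6% of them in CT and 14.8% in KO. The 10 cells with the most held 55.8% in CT and 70.4% in KO.

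**Figure D3:**
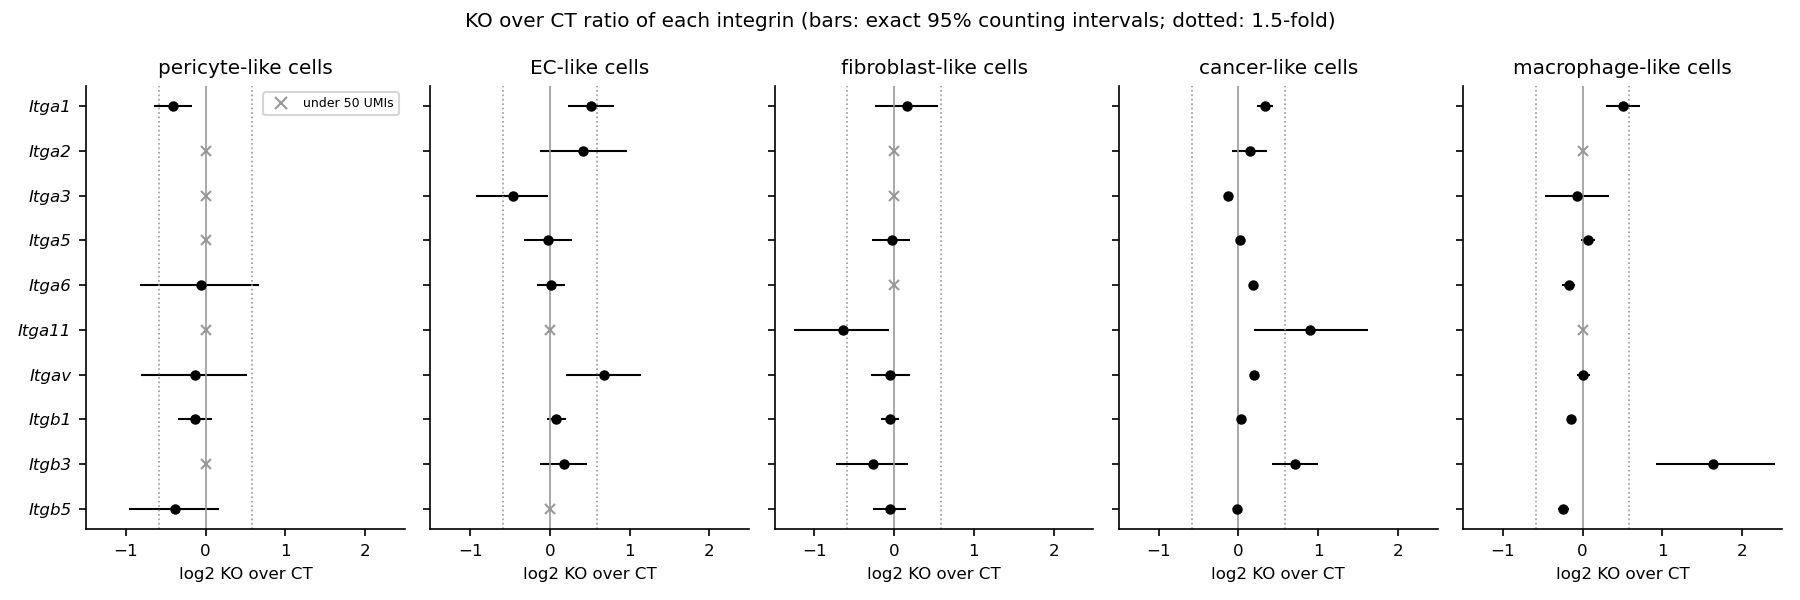
Log2 KO over CT ratio of each integrin in 5 cell classes, with exact 95% counting intervals as bars, dotted lines at 1.5-fold and crosses, set at 0 in place of a ratio, for members under 50 UMIs. The ratios of the 5 counted members in pericyte-like cells lie between -0.41 and -0.06, and the 5 past 1.5-fold are Itgav in EC-like (0.68), Itga11 in fibroblast-like (-0.65), Itga11 and Itgb3 in cancer-like (0.90 and 0.71) and Itgb3 in macrophage-like cells (1.64).

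In EC-like cells, which are not the target of the Cre, 8 members were counted, of which 1 was at least 1.5-fold higher and 0 lower in KO, beside 5.02% of 6041 genes higher and 4.35% lower. The member was Itgav, at 48.4 CPM from 76 UMIs in CT and 77.3 CPM from 82 UMIs in KO, with a log2 ratio of 0.68 (0.21 to 1.15). These UMIs came from 36 of 58 CT and 29 of 56 KO cells, and 67.1% of the KO UMIs lay in 10 cells. With equal weight of cells the log2 ratio was 0.49, under 1.5-fold, and that of Itga2 was 0.84 and that of Itga3 -0.90, both past it. Itga1 came next at 131 and 188 CPM, a log2 ratio of 0.52 (0.23 to 0.80), opposite in sign to that of pericyte-like cells. Pericyte markers in EC-like cells would carry 26.2 CPM of Itga1 in CT and 8.61 CPM in KO, and the part of that RNA in the ratio was not tested. The main laminin and fibronectin receptors lay near 0, with log2 ratios of 0.02 (-0.16 to 0.19) for Itga6 and -0.02 (-0.32 to 0.28) for Itga5, as were Itgb1 at 0.08 (-0.04 to 0.20) and Itgb3 at 0.17 (-0.13 to 0.47). Itga3 stood at -0.47 (-0.93 to -0.02) and Itga2 at 0.42 (-0.13 to 0.96).

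**Figure D4:**
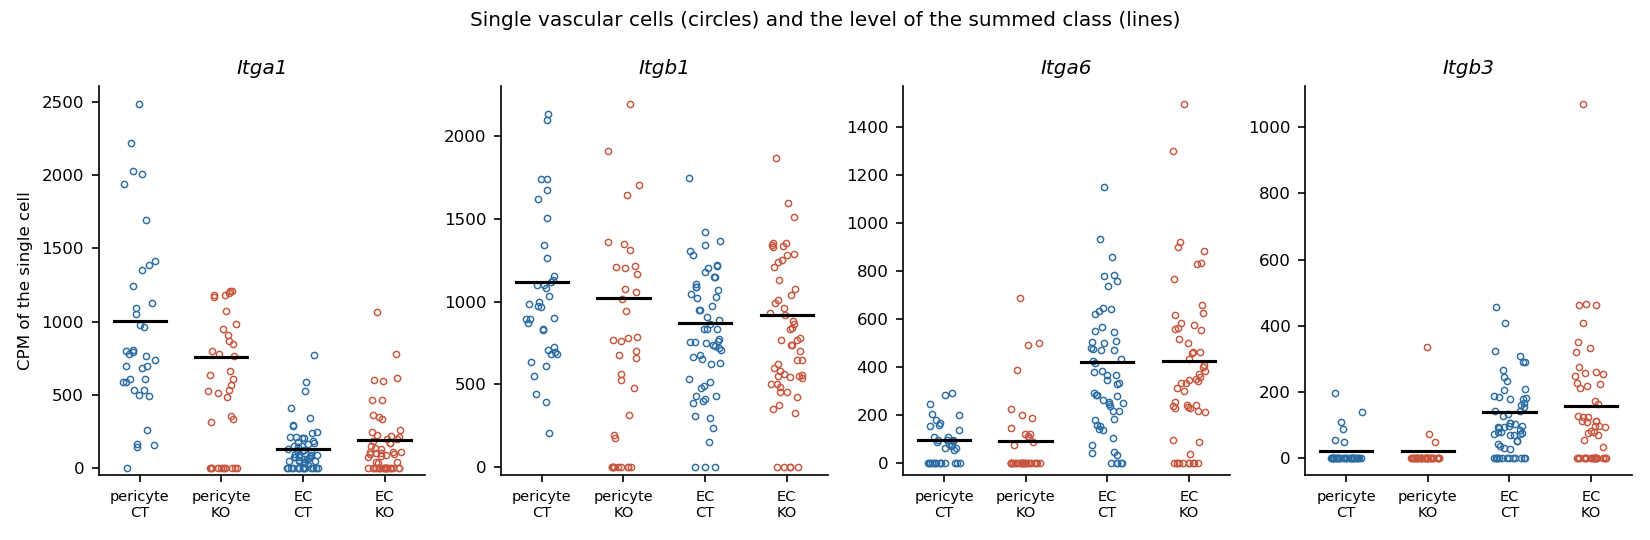
Level of Itga1, Itgb1, Itga6 and Itgb3 in each single pericyte-like and EC-like cell (circles, CPM of the cell) of the CT and KO libraries, with the level of the summed class as a line. Cells without a UMI lie at 0. The median of Itga1 is higher in pericyte-like cells (779 and 569 CPM) than in EC-like cells (83.8 and 98.4 CPM). Single cells overlap, with EC-like cells reaching 771 CPM in CT and 1063 CPM in KO. The medians of Itga6 and Itgb3 show the reverse order.

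In fibroblast-like cells 7 members were counted, with 1 at least 1.5-fold lower and 0 higher in KO, beside 5.37% of 7891 genes lower and 3.90% higher. Itga11 was the lower member, with a log2 ratio of -0.65 (-1.25 to -0.06) from 77 and 37 UMIs. Only 29 of 122 CT and 16 of 215 KO cells held a UMI of it, and 83.8% of the KO UMIs lay in 10 cells. The median depth of this class was also the most unequal of all, at 21561.5 against 2760 UMIs, and the part of depth in the ratio was not tested. The other 6 members lay between -0.27 for Itgb3 and 0.16 for Itga1, all with intervals that held 0.

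In cancer-like cells all 10 members were counted, with 2 at least 1.5-fold higher and 0 lower in KO, beside 8.90% of 15339 genes higher and 0.769% lower. Both were rare. Itgb3 was at 0.421 CPM from 171 UMIs in CT and at 0.689 CPM from 232 UMIs in KO, and its log2 ratio was 0.71 (0.42 to 1.00). Itga11 was at 0.0715 and 0.134 CPM, and its log2 ratio was 0.90 (0.20 to 1.63). RNA of EC-like cells, read from their markers, would carry 0.750 and 1.10 CPM of Itgb3 into cancer-like cells, above the measured levels, and that of fibroblast-like cells 1.20 and 1.14 CPM of Itgb3 and 0.850 and 0.620 CPM of Itga11, also above them. The part of RNA from these cells in both ratios was not tested. The members that cancer cells use at higher levels were close to 0. Itgb1 had a log2 ratio of 0.03 (0.01 to 0.04), Itgb5 of -0.01 (-0.05 to 0.02) and Itga5 of 0.02 (-0.02 to 0.05), while Itga6 had 0.18 (0.16 to 0.21), Itgav 0.19 (0.16 to 0.23) and Itga3 -0.13 (-0.18 to -0.08). These narrow intervals reflect the number of UMIs and hold no spread between tumors.

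In macrophage-like cells 8 members were counted, with 1 at least 1.5-fold higher and 0 lower in KO, beside 4.32% of 12059 genes higher and 2.22% lower. Itgb3, which with Itgav forms the adhesion receptor of osteoclasts, was at 0.737 CPM from 22 UMIs in CT and at 2.29 CPM from 62 UMIs in KO, and its log2 ratio was 1.64 (0.91 to 2.41). It was found in 19 of 2622 CT and 37 of 3517 KO cells, and 11 of the KO UMIs were in 1 cell. Markers of EC-like cells would carry 0.429 and 0.889 CPM of Itgb3 into this class and those of fibroblast-like cells 0.312 and 0.418 CPM. The part of RNA from both classes in the ratio was not tested. Macrophage-like cells with UMIs of all 3 osteoclast genes Ctsk, Mmp9 and Acp5, and with at least 10 UMIs of these genes per 10000 of the cell, a group and level chosen after the values were seen, numbered 3 in CT and 22 in KO and held 1 and 2 of the Itgb3 UMIs. The part of osteoclast-like cells in the ratio was not tested. Of the abundant members of the class, Itgb1 stood at 442 and 399 CPM, a log2 ratio of -0.15 (-0.18 to -0.11), Itgb5 at -0.24 (-0.31 to -0.17) and Itgav at 0.01 (-0.07 to 0.09), and Itga1 had a log2 ratio of 0.51 (0.29 to 0.72).

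The 3 leukocyte classes with fewer cells held few counted members. In granulocyte-like cells 2 members were counted and 0 were apart, beside 8.63% of 2839 genes lower and 7.64% higher. In T-like cells 1 of 2 counted members was lower, beside 7.73% of 1410 genes lower and 6.88% higher. It was Itgav, at 140 CPM in CT and 84.7 CPM in KO, with a log2 ratio of -0.73 (-1.54 to 0.06) whose interval held 0. In dendritic-like cells 1 of 4 counted members was higher, beside 5.69% of 4865 genes higher and 3.97% lower. It was Itga1, at 18.5 CPM (11.6 to 28.1) from 22 UMIs in CT and 33.5 CPM (23.4 to 46.3) from 36 UMIs in KO, with a log2 ratio of 0.85 (0.05 to 1.69). Markers of pericyte-like cells would carry 0.919 and 0.329 CPM of Itga1 into this class.

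The genes around the receptors were read from lists of activators, adhesion plaque proteins, membrane partners and ligands, which were drawn up with earlier results of these data known (1 of the 11 membrane partner names, Cd98, is not a symbol of the files). The genes listed as RGD ligands were not checked for the motif. In pericyte-like cells, 1 of 6 counted activators and inhibitors was at least 1.5-fold lower and 0 higher, 0 of 11 adhesion plaque genes lower and 1 higher, 1 of 8 membrane partners lower and 1 higher, 0 of 8 collagens apart, 1 of 4 laminins lower, 1 of 8 RGD ligands lower and 1 higher, and 1 of 2 integrins outside the set lower, beside the 8.59% of all genes lower and 5.40% higher in this class. Their median log2 ratios ran from -0.50 for the 2 integrins outside the set to 0.20 for RGD ligands, with laminins at -0.45. Fblim1, of the activators and inhibitors, stood at 134 CPM in CT and 76.9 CPM in KO, a log2 ratio of -0.80 (-1.57 to -0.08). Sdc1, a heparan sulfate proteoglycan that works with Itgav receptors, stood at 440 and 273 CPM (-0.69, -1.09 to -0.31). Lamb1, a laminin beta chain of vascular basement membranes, stood at 227 and 143 CPM (-0.66, -1.22 to -0.13). The remaining RGD ligand, the microfibril protein Fbn1, and the remaining integrin, Itga4, are named after their values were seen and had log2 ratios of -0.66 and -0.61.

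Higher in KO pericyte-like cells were Spp1, Slc3a2 and Actn4. Spp1, the RGD ligand osteopontin, stood at 127 and 255 CPM, a log2 ratio of 1.00 (0.49 to 1.52). Macrophage markers in these cells were at 0.782% in CT and 2.24% in KO of their level in macrophage-like cells, which would carry 11.4 and 39.9 CPM of Spp1. The cancer-cell markers there would carry 101 and 217 CPM of it and the fibroblast markers 403 and 462 CPM, above the measured level. The part of RNA from these cells in the Spp1 ratio was not tested. Actn4, an actin cross-linker of adhesions, stood at 321 and 486 CPM (0.60, 0.25 to 0.94), and Slc3a2, which binds beta subunits, at 62.6 and 97.9 CPM with an interval of -0.16 to 1.45 that held 0. Kindlin-2 (Fermt2) and talin (Tln1), named after their values were seen, stood at 546 and 552 CPM and at 349 and 297 CPM.

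In EC-like cells, where 4.35% of all genes were lower and 5.02% higher, 1 of 18 adhesion plaque genes was lower and 2 higher, 2 of 5 RGD ligands were higher and 0 lower, and none of 8 activators, 9 membrane partners, 3 collagens or 5 laminins was 1.5-fold apart. Of 2 counted integrins outside the set, 1 (Itgb4) was lower. Thbs1, a ligand that activates TGF-beta, stood at 47.2 CPM in CT and 193 CPM in KO, a log2 ratio of 2.04 (1.65 to 2.44), and Spp1, named after its values were seen, at 110 and 170 CPM, a log2 ratio of 0.62. Cancer-cell markers in EC-like cells, at 5.48% and 4.77% of their level in cancer-like cells, would carry 104 and 105 CPM of Spp1, and the part of that RNA in the ratio was not tested. The plaque proteins Vcl, which ties talin to actin, and Nedd9, a scaffold of focal adhesion kinase, stood at 72.7 and 120 CPM (0.72, 0.35 to 1.10) and at 65.0 and 111 CPM (0.78, 0.38 to 1.17). Tns3, a tensin that links beta subunits to actin, was lower at 30.0 and 12.3 CPM (-1.29, -2.30 to -0.38). Itgb4, the hemidesmosome partner of Itga6, was at 28.0 and 12.3 CPM (-1.19, -2.21 to -0.27).

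In the other 3 main classes most listed genes were within 1.5-fold. In fibroblast-like cells, beside 5.37% of all genes lower and 3.90% higher, 2 of 18 plaque genes (Lims2 and Tns1) were lower, 1 of 9 RGD ligands (Tnc) and 3 of 4 integrins outside the set (Itga9, Itgam and Itgb2) were higher, and none of 11 activators, 10 membrane partners, 8 collagens and 5 laminins was apart. Of these collagens, Col1a1, Col1a2 and Col3a1 are markers that placed the fibroblast-like cells, so that their levels there are bound by the placing. In cancer-like cells, beside 8.90% of all genes higher and 0.769% lower, 0 listed genes were lower. Higher there were 1 of 12 activators (Fermt3), 2 of 21 plaque genes (Parvg and Tns1), 0 of 10 membrane partners, 2 of 8 collagens (Col1a1 and Col1a2) and 1 of 5 laminins (Lama4). Also higher were 3 of 9 genes listed as RGD ligands (Tnc, Thbs1 and Postn) and 5 of 13 integrins outside the set (Itga4, Itga9, Itgal, Itgam and Itgax). In macrophage-like cells, beside 4.32% of all genes higher and 2.22% lower, 0 were lower, and 1 of 12 activators (Fermt2), 2 of 20 plaque genes (Parva and Tgfb1i1), 0 of 10 membrane partners, 2 of 8 collagens (Col1a1 and Col5a1), 2 of 5 laminins (Lama4 and Lamb1), 2 of 9 RGD ligands (Tnc and Thbs1) and 0 of 7 other integrins were higher. The genes of these 3 classes were named after their values were seen. Fibroblast markers, collagens among them, stood at 3.04% in CT and 3.47% in KO of their fibroblast-like level in cancer-like cells and at 0.789% and 1.27% in macrophage-like cells, and would carry 297 and 350 CPM of Col1a1 into cancer-like cells, measured at 28.5 and 52.0 CPM. Macrophage markers in cancer-like cells stood at 0.891% in CT and 2.18% in KO and would carry 5.22 and 13.8 CPM of Itgam, an integrin of myeloid cells measured at 7.01 and 14.5 CPM. Macrophage markers in fibroblast-like cells stood at 1.43% and 1.93% and would carry 8.39 and 12.2 CPM of Itgam, measured at 13.1 and 25.1 CPM, and 5.82 and 9.35 CPM of Itgb2, measured at 8.72 and 18.8 CPM. Cancer-cell markers in macrophage-like cells stood at 7.13% in CT and 8.52% in KO. They would carry 6.22 and 6.75 CPM of Fermt2, measured at 5.39 and 10 CPM, and 3.82 and 4.33 CPM of Parva, measured at 6.23 and 9.76 CPM. Pericyte markers in fibroblast-like cells would carry 15.5 and 14.1 CPM of Tns1, measured at 41.4 and 20.8 CPM. The part of RNA from other classes in these counts was not tested.

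The genes most like each member were sought by the Pearson correlation of log2(CPM + 1) over the 16 class sums of both libraries among 13811 genes. These sums share libraries and depth, so that the values are a description. Itga1 was closest to Plekhg2 (0.938), Sept7 (0.930) and Kctd10 (0.930), and Itgb1 to Camta1 (0.968), Emc7 (0.944) and Dennd6a (0.937). Itga11 was closest to the fibroblast genes Smoc2 (0.976) and Cdh11 (0.974), a matrix protein and a cadherin, and then to the nonagouti gene a (0.973). Itga6 was closest to Phactr4 (0.896), Gmpr (0.892) and Angpt2 (0.875), the last a ligand of the endothelial receptor Tek.

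For the remaining members the closest were Add1 (0.896), Plxna2 (0.893) and Rflnb (0.890) for Itga2, Lmo7 (0.926), Prss22 (0.872) and Dock9 (0.870) for Itga3, and Pdlim4 (0.944), Dusp23 (0.930) and Timm8b (0.920) for Itga5. Itgav was closest to Fam53c (0.906), Clcn4 (0.873) and Slc25a51 (0.864), Itgb3 to Ablim1 (0.928), Lysmd2 (0.928) and Ugcg (0.916), and Itgb5 to Psd3 (0.905), Lpl (0.872) and Olfml3 (0.865). Between members, the highest correlation was that of Itga1 with its partner Itgb1 (0.884), followed by Itga2 with Itgb3 (0.826), and the lowest was that of Itga3 with Itgb5 (-0.715).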

How the data were processed

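UMI counts of 2 droplet libraries of LLC tumors were used, CT and KO, each from 3 pooled tumors. The deposited matrices hold raw counts per gene and barcode, made by the authors with Cell Ranger 6.1.1 on mm10 and not normalized. Cells with under 10% mitochondrial UMIs and within 3 median absolute deviations of the median log UMIs and genes were kept. A cell was placed in a class from at least 3 of its markers at a level set per class from the markers alone, with cancer-cell RNA, and outside macrophage-like cells macrophage RNA, under 25% of the level of that cell type or at most 1 UMI. Cells that met more than 1 class (5 in CT and 4 in KO) were left out, and no doublet caller was run. NK-like cells (13 and 11) were not made a class, and cells with NK markers were not removed from the other classes.

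UMIs were summed per class and library and divided by the UMIs of the class (CPM). No test was made, since each genotype has 1 library. Exact Poisson, Clopper-Pearson and conditional intervals cover counting error only. Python 3.11.15, NumPy 2.4.6 and SciPy 1.17.1 were used, and the intervals were tested on simulated counts. Gene positions are from GENCODE vM21 and promoters from RefSeq. The members, markers and lists were chosen with earlier results of these data known. All members are named. Of the other lists, the 3 genes farthest each way past 1.5-fold in pericyte-like and EC-like cells are named, and the 3 most alike genes per member. Fermt2 and Tln1 were added after their values were seen. Alternatives were thinned cells, equal weight of cells, scaling by the median ratio, cell filters, the cancer RNA limit, 1 marker more and no count minimum.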

Additional observations from a re-analysis of the deposited data

How the results depend on the processing

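The class with the highest level was the same in both libraries for 8 of the 10 members under every setting except thinning, where it was the same for 7. Counts of members past 1.5-fold are small and moved by single genes. With cells thinned to 2000 UMIs, 0 members were higher in EC-like, cancer-like and macrophage-like cells and 0 lower in fibroblast-like cells, since the genes that had passed kept under 50 UMIs. With equal weight of cells, 1 was lower in pericyte-like (Itga1), 1 lower in EC-like (Itga3), 2 lower in fibroblast-like (Itga11 and Itgb3) and 2 higher in macrophage-like cells (Itgb3 and Itga3), and the 1 higher in EC-like cells was Itga2 in place of Itgav. Without the limit on cancer RNA, 3 were higher in EC-like, 1 in cancer-like and 1 in fibroblast-like cells, and 0 lower in fibroblast-like cells. With 1 marker more, 1 was higher in cancer-like cells, and without the minimum of 50 UMIs, 2 were higher in fibroblast-like and 2 in macrophage-like cells. Except where fewer UMIs remain, the cause was not tested. No ratio past 1.5-fold changed sign, and 23 of 37 ratios left their counting interval when thinned, 16 of 38 with equal weight, and at most 2 of 38 under each of the other 6 settings. No paired analysis was possible because each genotype has 1 library. Depth limits the classes with few cells, where 5 members in pericyte-like, 6 in dendritic-like and 8 each in granulocyte-like and T-like cells stayed under 50 UMIs. Ratios of the last 3 classes were not run under the alternatives.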

Other observations

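Integrins outside the matrix-binding set also differed between the classes. Itgb7, a beta subunit known from gut-homing lymphocytes, was at 269 CPM in CT and 254 CPM in KO T-like cells, and also at 86.4 and 82.1 CPM in cancer-like cells, above the level of Itgb5 there. Its alpha partners Itga4 and Itgae were at 0.801 and 1.60 CPM and at 0.589 and 0.585 CPM in cancer-like cells. Itgb2, the beta subunit shared by leukocytes, was at 15.6 and 21.3 CPM in cancer-like and at 407 and 484 CPM in macrophage-like cells. Itgb7 was at 38.2 and 44.8 CPM in macrophage-like cells. The part of RNA from other classes in the Itgb7 level of cancer-like cells was not tested.

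Pericyte-like cells also held Itga7, a laminin receptor of muscle, at 82.0 and 62.9 CPM, and Itga4 at 90.6 and 59.4 CPM, and EC-like cells held Itga9 at 74.6 and 58.5 CPM. In EC-like cells Itga4 was at 8.29 CPM in CT and 0 UMIs in KO, and Itga7 at 3.19 CPM and 0 UMIs, so that these alpha subunits, like Itga1 and Itgb5, were higher in pericyte-like than in EC-like cells of both libraries.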
